A study of Mus musculus with 12 samples.

Results

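The MYC, MAX and MXD network was taken as 10 genes, Myc, Mycn, Mycl, Max, Mxd1, Mxi1, Mxd3, Mxd4, Mnt and Mlx, chosen by symbol from the annotation of a mouse Clarion S array. They are 10 of 19505 named genes on the array, and each of the 10 has a single probe. RNA came from cultured S100β-v-erbB/p53-/- cells of the FVB-NJ strain, which the labels also call TSC1. In all groups the cells carried v-erbB, an activated form of the EGF receptor, as a transgene under the S100β promoter, and lacked p53. Cells were kept for 16 h in normoxia with DMSO as the vehicle, or in hypoxia with 1 of DMSO, BFA or EHT-1864 at 1 µM, with 3 arrays for each of these 4 groups. BFA, brefeldin A, blocks the activation of ARF GTPases and so membrane traffic at the Golgi, and EHT-1864 inhibits Rac GTPases. For BFA the treatment protocol states 1 µM but the series title 0.1 µM, so its dose is uncertain. The compounds were given in hypoxia only, so their effects in normoxia were not measured. The design text speaks of 3 independent cultures, so the p-values below measure the spread between these cultures.

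All values are log2 signals after RMA. A difference was called when its Benjamini-Hochberg adjusted p, from limma over all 22206 probes, was under 0.05. A probe was taken as measured on an array when it lay above that array's floor, the 95th percentile of its negative control probes. The floor lay at 5.59 to 5.64 on the arrays with DMSO, at 6.37 to 6.65 with BFA and at 5.88 to 6.15 with EHT-1864. Probes under the floor made up 51.6% to 52.3% of those tested with DMSO, 63.2% to 67.9% with BFA and 55.9% to 60.0% with EHT-1864. The mean of the 4 hybridisation control probes also differed, at 9.85 ± 0.06 in normoxia, 9.76 ± 0.06 with DMSO in hypoxia, 10.25 ± 0.07 with EHT-1864 and 10.93 ± 0.12 with BFA (SD, n = 3 each). The part of these array differences in the changes below was not tested. The hypoxia check list, 6 genes induced by low oxygen, rose in hypoxia with DMSO for 6 of 6. With BFA 5 of the 6 fell, and with EHT-1864 all 6 fell. Among all probes 2.11% were called higher in hypoxia, 24.6% lower with BFA and 17.4% lower with EHT-1864. Of 5 listed oligodendrocyte progenitor markers 4 were measured, and all 4 lay above the floor in every group. Their mean level was 10.62 to 10.72 in normoxia, 10.60 to 10.66 with DMSO in hypoxia, 9.12 to 9.35 with EHT-1864 and 7.35 to 7.47 with BFA, and all 4 fell with each compound. Their part in the network's changes was not tested. Of 5 markers per other cell type, at most 2 neuronal ones and 1 each of astrocyte, microglial and fibroblast ones lay above the floor in any group, and none of the endothelial ones. In RNA from whole cultures, fewer cells of a type and less RNA per cell cannot be told apart.

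MYC proteins bind DNA as pairs with MAX, at E-boxes, and raise the transcription of genes for ribosome production, nucleotide synthesis and cell division. The MXD proteins and MNT compete for MAX and bring the SIN3 corepressor and histone deacetylases to the same sites. MLX resembles MAX and pairs with MondoA and ChREBP, which sense glucose metabolites, and also with some MXD proteins and MNT. In hypoxic cells, HIF-1 induces MXI1 and shares many glycolytic targets with MYC. In glioma, MYC activity is linked to growth and to the undifferentiated state.

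Promoter windows were available from RefSeq (GRCm38.p6) for 9 of the 10 members, matched by symbol, with 11 windows in all since Mxi1 has 3. Each was searched over the 250 bases before the window's annotated start, on both strands, for the E-box CACGTG, the site of MYC and MAX, and for ACGTG or GCGTG, the core of a HIF site. That start is not always the first base of the gene. The windows of Mlx, Mycl and Mxi1 lie wholly inside the gene's annotated span, which begins at chr11:101086707 for Mlx. An E-box also holds ACGTG. Shown here are the 3 windows with an E-box, those of Mxd4, Mnt and Mlx, and the first 2 windows of Mxi1, the member that rose in hypoxia. They are written 5′ to 3′ on the gene's strand, with the matched motifs in capitals.
Mxd4, chr5:34187711-34187960, minus strand: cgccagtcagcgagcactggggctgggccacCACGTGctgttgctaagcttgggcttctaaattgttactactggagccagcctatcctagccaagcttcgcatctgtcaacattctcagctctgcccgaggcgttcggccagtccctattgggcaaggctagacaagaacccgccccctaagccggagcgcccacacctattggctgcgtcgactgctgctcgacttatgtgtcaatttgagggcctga
Mnt, chr11:74830674-74830923, plus strand: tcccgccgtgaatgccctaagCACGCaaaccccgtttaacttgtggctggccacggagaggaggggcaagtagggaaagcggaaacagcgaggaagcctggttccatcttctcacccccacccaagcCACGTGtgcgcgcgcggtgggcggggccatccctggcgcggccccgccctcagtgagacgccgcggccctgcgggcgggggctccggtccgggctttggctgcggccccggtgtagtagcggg
Mlx, chr11:101087040-101087289, plus strand: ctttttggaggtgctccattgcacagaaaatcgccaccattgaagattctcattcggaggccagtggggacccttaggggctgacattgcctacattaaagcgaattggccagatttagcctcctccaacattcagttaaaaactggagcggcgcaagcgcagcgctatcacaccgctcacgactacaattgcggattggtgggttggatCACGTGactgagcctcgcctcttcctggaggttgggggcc
Mxi1, first start, chr19:53310256-53310505, plus strand: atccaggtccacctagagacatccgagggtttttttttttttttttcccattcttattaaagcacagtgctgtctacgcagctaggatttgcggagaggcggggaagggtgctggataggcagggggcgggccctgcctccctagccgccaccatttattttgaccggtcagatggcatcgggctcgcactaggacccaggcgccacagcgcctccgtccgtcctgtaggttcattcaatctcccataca
Mxi1, second start, chr19:53329163-53329412, plus strand: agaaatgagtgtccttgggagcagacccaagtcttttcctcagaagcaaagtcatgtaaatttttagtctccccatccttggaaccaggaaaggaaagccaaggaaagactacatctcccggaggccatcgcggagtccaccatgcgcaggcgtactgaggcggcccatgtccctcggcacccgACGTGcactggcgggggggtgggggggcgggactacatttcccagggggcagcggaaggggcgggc
The E-box began at position −219 in Mxd4, −123 in Mnt and −40 in Mlx, counted from the window's annotated start. It was found in 6.02% of all 32851 windows searched in the same way and in 6.88% of the 19143 windows of genes on the array. The window at the first start of Mxi1 held neither motif, and that at the second held ACGTG at position −66. Window 3 of Mxi1, not shown, held ACGTG at position −25. An ATG lies shortly before that match, and its reading frame runs through the match to the window's end without a stop codon. The match in window 3 may thus lie in coding sequence, and it is not taken as a promoter site. The HIF core was found in 7 of the 11 windows, from 6 members, against 38.6% of all windows and 45.5% of those of genes on the array. The 7 include window 3 of Mxi1, whose match may be coding. In Mxd4 and Mlx each of the 2 core matches lies inside the E-box, as do 2 of the 3 in Mnt. These are E-box letters counted again, and the shares over all windows count such matches too. These matches describe letters in the reference sequence. The array gives 1 value for Mxi1, so the use of its separate starts was not measured.

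In hypoxia with DMSO against normoxia, 1 of the 10 members rose, none fell and 9 did not pass the test. Over all probes in this comparison 2.67% were called, 2.11% higher and 0.563% lower. BFA against DMSO in hypoxia raised 3 members, lowered 4 and left 3 without a call, where 50.7% of all probes were called, 26.1% higher and 24.6% lower. The 4 include Mycn, which lay below the floor on all 12 arrays. EHT-1864 against DMSO in hypoxia raised none and lowered 4, where 30.5% of all probes were called, 13% higher and 17.4% lower. These 4 include Mycl, which lay below the floor on every EHT-1864 array. Between the compounds, 3 members were higher and 2 lower with BFA than with EHT-1864, where 36.5% of all probes were called, 16.9% higher and 19.6% lower. With only 10 members and so many probes called under both compounds, the members' counts are no result about the network as a group. Leaving out the first array of hypoxia with DMSO took the members called with EHT-1864 from 4 to 2. The median member difference was 0.07, −0.16, −0.48 and 0.22 in these 4 comparisons, beside −0.03, 0.09, 0.05 and 0.05 over all genes. Over all probes the median shift with BFA against DMSO was 0.11, and 0.19 after subtracting each array's median. The BFA and EHT-1864 comparisons share the same DMSO arrays.

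**Figure D1:**
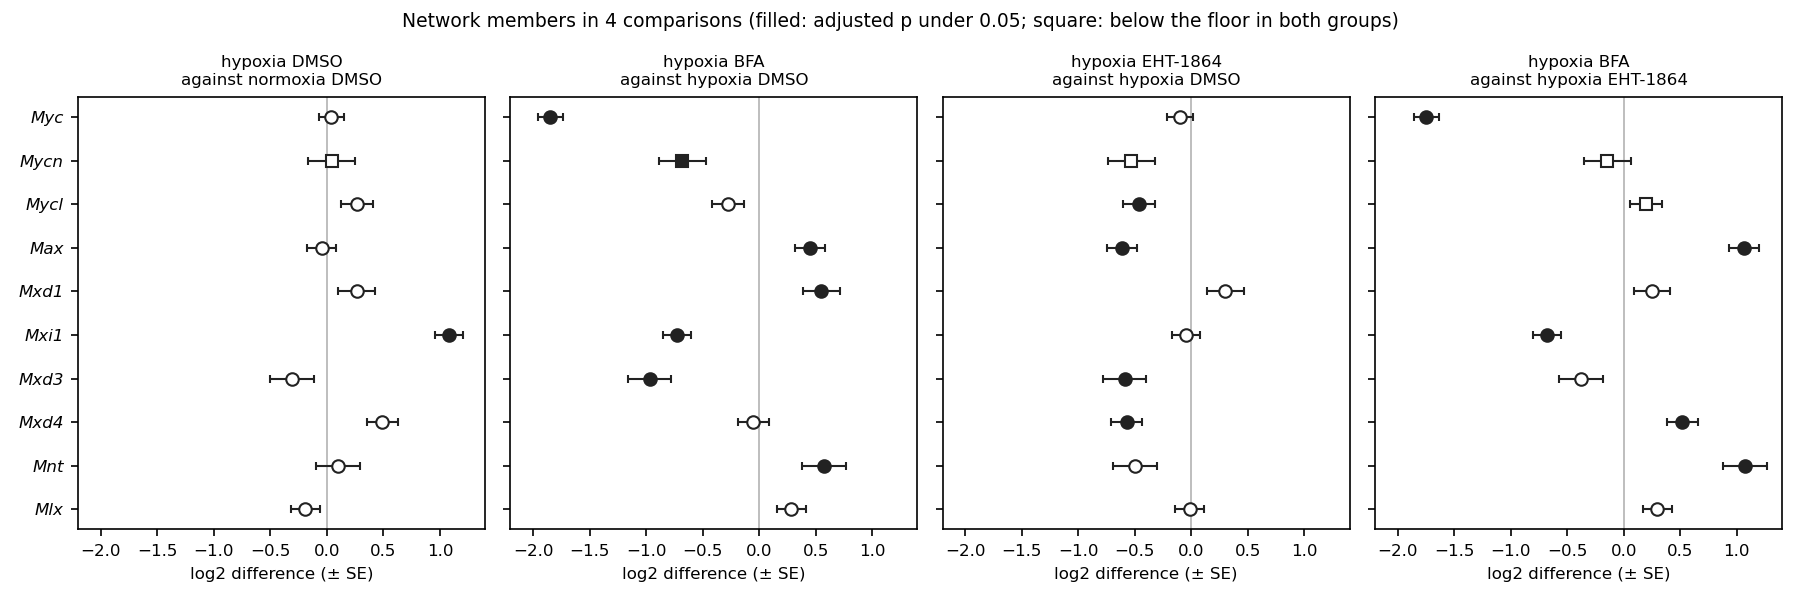
Log2 difference (± SE, from limma with 3 arrays a group) of the 10 network members in 4 comparisons, with filled points for adjusted p under 0.05 and squares for members below the floor in both groups. Mxi1 is the only filled point in hypoxia against normoxia, and Myc lies farthest to the left with BFA, at −1.85 against DMSO and −1.75 against EHT-1864.

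Myc, the broadly acting member of the MYC proteins, fell with BFA, while its differences in hypoxia and with EHT-1864 did not pass the test. Its values were 11.80, 11.79 and 11.81 in normoxia and 11.77, 11.89 and 11.86 in hypoxia with DMSO. With BFA they were 9.83, 10.10 and 10.06, and with EHT-1864 they were 11.78, 11.78 and 11.67. The 3 BFA arrays lay below all 9 others. The arrays of hypoxia with DMSO overlapped both normoxia and EHT-1864, and the EHT-1864 arrays lay just below those of normoxia. The fall with BFA was 1.85 ± 0.11 on the log2 scale (SE, n = 3 against 3), or 3.59-fold, with an adjusted p of 5.42e-08 in limma. Over 21 alternative settings it ranged from −1.90 to −1.64. Hypoxia differed from normoxia by 0.04 (95% interval −0.20 to 0.28, limma adjusted p = 0.913), and EHT-1864 from DMSO by −0.10 (−0.34 to 0.14, adjusted p = 0.533). EHT-1864 differed from normoxia by −0.06 (adjusted p = 0.757). In order of level, no difference among hypoxia with DMSO, normoxia and EHT-1864 passed the test, and BFA lay below them.

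The other MYC genes were at the limit of the array. Mycn, the neural and embryonic form, lay below the floor on all 12 arrays, with values of 3.35 to 4.53. Its probe read lower with BFA than with DMSO by 0.68 ± 0.21 in log2 (limma adjusted p = 0.0155), but both levels are under the floor, so no fold is given. That call was lost without BFA array 3 or without DMSO array 1 or 3. Mycl, first found in lung cancer, read 6.0, 5.69 and 5.73 in hypoxia with DMSO, above the floor on all 3. In normoxia it read 5.73, 5.38 and 5.53, with 1 of 3 arrays above the floor. With BFA it read 5.75, 5.38 and 5.47 and with EHT-1864 5.28, 5.33 and 5.43, all below the floor. The probe was called lower with EHT-1864 than with DMSO (limma adjusted p = 0.0250), but the EHT-1864 floors are on average higher than the DMSO values, so no size is given. That call was lost after quantile normalisation, without DMSO array 1 and without EHT-1864 array 1 or 2, with adjusted p up to 0.106.

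Max, the shared partner of the MYC, MXD and MNT proteins, moved in opposite directions with the 2 compounds. Its values were 8.59, 8.38 and 8.47 in normoxia and 8.34, 8.43 and 8.52 in hypoxia with DMSO. With BFA they were 8.73, 8.98 and 8.93, and with EHT-1864 8.02, 7.64 and 7.78. The DMSO groups overlapped, all BFA arrays lay above them and all EHT-1864 arrays below. BFA raised Max by 0.45 ± 0.13 (1.37-fold, limma adjusted p = 0.0124), and EHT-1864 lowered it by 0.62 ± 0.13 on the log2 scale (1.53-fold, adjusted p = 0.00362). The difference between the compounds was 1.07 ± 0.13 (2.09-fold, adjusted p = 3.08e-05). All 3 calls were kept under the 21 alternatives. Max lay above the floor on every array, but with neither compound above the 99th percentile of the negative control probes. Hypoxia alone changed Max by −0.05 (95% interval −0.33 to 0.24).

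Mxi1, an MXD repressor of MYC targets, was the member that rose in hypoxia. It read 8.59, 8.69 and 8.50 in normoxia and 9.68, 9.72 and 9.62 in hypoxia with DMSO. With BFA it read 9.07, 8.82 and 8.95, and with EHT-1864 9.73, 9.43 and 9.72. The BFA arrays lay between the normoxia and the hypoxia arrays with no overlap, while the EHT-1864 arrays overlapped those with DMSO. Hypoxia raised Mxi1 by 1.08 ± 0.12 (2.12-fold, limma adjusted p = 2.30e-04), a call kept under all 21 alternatives. BFA lowered it by 0.73 ± 0.12 on the log2 scale (1.66-fold, adjusted p = 3.34e-04). EHT-1864 differed from DMSO by −0.05 (95% interval −0.31 to 0.22, adjusted p = 0.801), and BFA from EHT-1864 by −0.68 ± 0.12 (adjusted p = 6.93e-04). Mxi1 with BFA lay 0.35 above normoxia (adjusted p = 0.0314). That last call was lost in the fit of the 6 arrays compared and without BFA array 1 or 3 or normoxia array 1 or 3, with adjusted p up to 0.105.

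Mxd4, the member of the MXD proteins found in many resting tissues, was higher in hypoxia without passing the test and was lowered by EHT-1864. It read 8.53, 8.48 and 8.24 in normoxia and 9.11, 8.80 and 8.80 in hypoxia with DMSO, with no overlap. The difference was 0.49 ± 0.14 (limma adjusted p = 0.0843), and it was called under 5 of the 21 alternatives, 4 of which change the probe filter or the variance model and 1 the array weights. With BFA Mxd4 read 8.78, 8.96 and 8.82, a difference of −0.05 from DMSO (95% interval −0.35 to 0.24). With EHT-1864 it read 8.49, 8.20 and 8.31, overlapping normoxia. EHT-1864 lowered it by 0.57 ± 0.14 on the log2 scale (1.49-fold, adjusted p = 0.00724), and BFA lay above EHT-1864 by 0.52 ± 0.14 (adjusted p = 0.00899).

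Mxd1, also called Mad1 and linked to cell differentiation, read 7.20, 7.46 and 7.31 in normoxia and 7.67, 7.50 and 7.59 in hypoxia with DMSO. With BFA it read 7.80, 8.16 and 8.46, and with EHT-1864 7.97, 7.69 and 8.0. Every compound array lay above every DMSO array. All these values lay above the floor, but none above the 99th percentile of the negative control probes. Mxd1 rose with BFA by 0.55 ± 0.16 (1.47-fold, limma adjusted p = 0.0130), a call lost without BFA array 3 (adjusted p = 0.0572). The difference with EHT-1864 was 0.30 (adjusted p = 0.182) and that between the compounds 0.25 (95% interval −0.10 to 0.60). Against normoxia, both compounds gave a higher value, by 0.82 with BFA (adjusted p = 0.00114) and 0.56 with EHT-1864 (adjusted p = 0.0237). The latter call was lost without EHT-1864 array 1 or 3 or normoxia array 1 or 3, with adjusted p up to 0.0946.

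Mxd3, expressed in dividing cells and unlike other MXD genes tied to proliferation, was lower with both compounds. It read 6.99, 7.01 and 6.78 in normoxia and 6.67, 6.50 and 6.69 in hypoxia with DMSO. With BFA it read 6.17, 5.40 and 5.39, all below the floor, and with EHT-1864 6.09, 6.18 and 5.82, with 2 of 3 above it. Mxd3 fell at least 1.09-fold with BFA against the floor (limma adjusted p = 0.00109). Such a bound is the brighter group's mean against the mean of the dim group's floors. Here and below, the limma adjusted p beside a bound is for the difference of the array values themselves, not for the bound. The fall with EHT-1864 was 0.59 ± 0.19 (adjusted p = 0.0332) and was lost after quantile normalisation and without any of the 3 DMSO arrays or EHT-1864 array 1 or 3, with adjusted p up to 0.217. The difference between the compounds did not pass the test (adjusted p = 0.146).

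Mnt, the most widely expressed MAX-binding repressor, rose with BFA. It read 6.66, 6.61 and 6.49 in normoxia and 6.76, 6.74 and 6.57 in hypoxia with DMSO. With BFA it read 7.45, 7.26 and 7.08, above every other array, and with EHT-1864 6.64, 5.70 and 6.24, with 2 of 3 above the floor. BFA raised Mnt by 0.57 ± 0.19 (1.49-fold, limma adjusted p = 0.0254), a call lost without BFA array 1 or DMSO array 3, with adjusted p up to 0.0860. The difference of EHT-1864 from DMSO was −0.50 (adjusted p = 0.0688). BFA lay above EHT-1864 by 1.07 ± 0.19 (2.10-fold, adjusted p = 6.99e-04), a call kept under the 21 alternatives.

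Mlx, the MAX-like partner, had no call in any of the 6 comparisons of the 4 groups. It read 8.74, 8.87 and 8.67 in normoxia and 8.46, 8.64 and 8.61 in hypoxia with DMSO. The readings were 8.87, 8.90 and 8.79 with BFA and 8.65, 8.32 and 8.70 with EHT-1864. The BFA arrays lay above those of DMSO in hypoxia and EHT-1864 and overlapped normoxia, and normoxia lay just above hypoxia with DMSO. The difference of BFA from DMSO was 0.28 (95% interval 0.01 to 0.56, limma adjusted p = 0.0813), and it was called under 6 of the 21 alternatives, among them quantile normalisation and median subtraction. The difference of EHT-1864 from DMSO was −0.01 (−0.29 to 0.26).

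**Figure D2:**
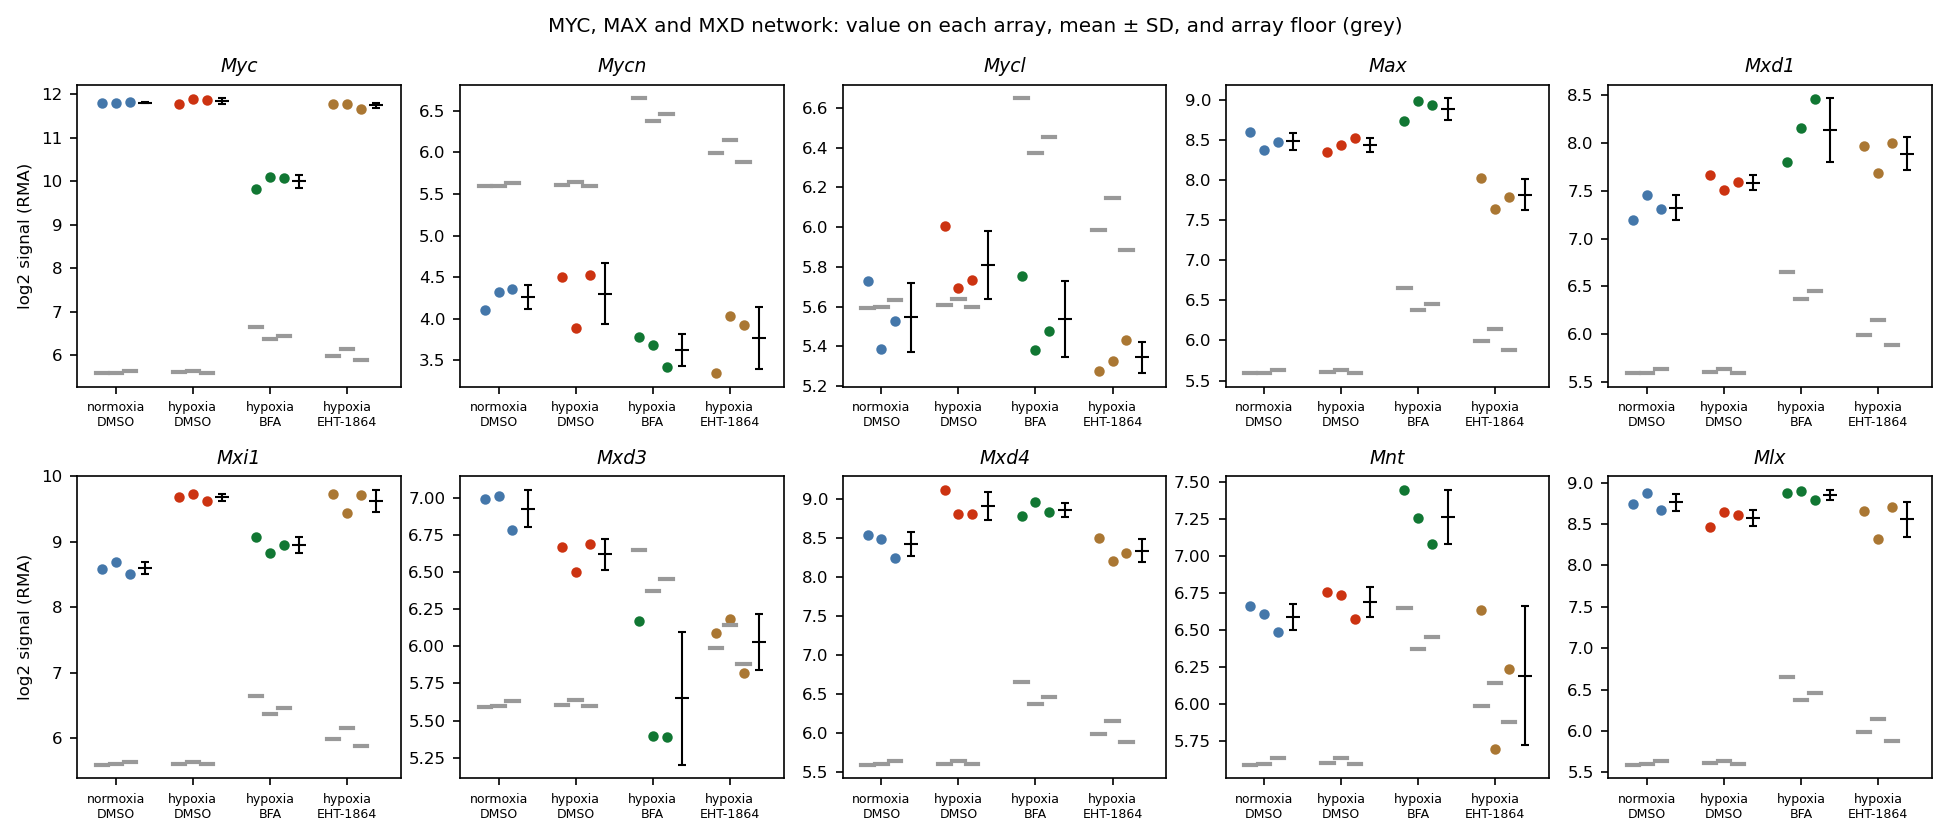
Log2 RMA signal of each of the 10 members on each of the 12 arrays by group, with the group mean ± SD (n = 3) in black and each array's floor as a grey line. The BFA arrays of Myc lie at 9.83 to 10.10 below all others, those of Mxi1 lie between normoxia and hypoxia, and Mycn lies under the floor on all 12 arrays.

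Against normoxia, 5 members were higher with BFA and 3 lower, where 47% of all probes were called, 23% higher and 24% lower. The 3 lower include Mycn, which lay below the floor on every array. The number of members called fell from 8 to 5 without BFA array 3 and to 4 without normoxia array 3. With EHT-1864 2 were higher and 2 lower than in normoxia, where 22.4% of all probes were called, 8.1% higher and 14.3% lower. Of all probes called in that comparison, 36.2% were higher, or 46.9% after quantile normalisation. The 2 higher were Mxi1, by 1.03 (limma adjusted p = 6.46e-05), and Mxd1, and the 2 lower were Max, by 0.66 on the log2 scale (adjusted p = 0.00262), and Mxd3, by 0.90 (adjusted p = 0.00427).

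The MLX arm of the network was followed through its partners and 2 known MondoA targets. Mlxip, which encodes MondoA, read 7.62, 7.60 and 7.38 in hypoxia with DMSO and 6.44, 6.61 and 6.45 with BFA, the latter above the floor on 1 of 3 arrays. That fall was 1.03 ± 0.14 in log2 (limma adjusted p = 5.04e-05). Mlxip did not pass the test in hypoxia against normoxia, with a difference of 0.01, or with EHT-1864, with 0.10. Mlxipl, which encodes ChREBP, lay below the floor on all 12 arrays. Mga, a MAX partner with its own DNA-binding domain, had no call in these comparisons. Its difference in hypoxia was 0.52 (adjusted p = 0.0925), called under 6 of the 21 alternatives, and that with BFA −0.32 (adjusted p = 0.0900), called under 2.

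Both target genes encode arrestin-like proteins that curb glucose uptake. Txnip read 8.16, 7.87 and 7.76 in normoxia and 10.07, 9.89 and 9.80 in hypoxia with DMSO. It read 8.84, 9.35 and 9.18 with BFA and 7.03, 7.38 and 6.87 with EHT-1864, and the 4 groups did not overlap. It rose in hypoxia by 1.99 ± 0.17 (limma adjusted p = 1.66e-05), fell with BFA by 0.80 ± 0.17 (adjusted p = 0.00205) and fell with EHT-1864 by 2.83 ± 0.17 (adjusted p = 2.90e-07). Arrdc4 rose in hypoxia by 1.39 ± 0.12 (adjusted p = 1.91e-05). Its order between the compounds was the reverse of that of Txnip. Arrdc4 fell to below the floor on all 3 BFA arrays, at least 2.54-fold (adjusted p = 6.57e-07), and fell with EHT-1864 by 0.88 ± 0.12 (adjusted p = 1.98e-04). Txnip was 2.03 higher with BFA than with EHT-1864 (adjusted p = 1.36e-06), and Arrdc4 at least 1.38-fold lower (adjusted p = 0.00111). The difference of Arrdc4 with BFA from normoxia did not pass the test (adjusted p = 0.424).

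**Figure D3:**
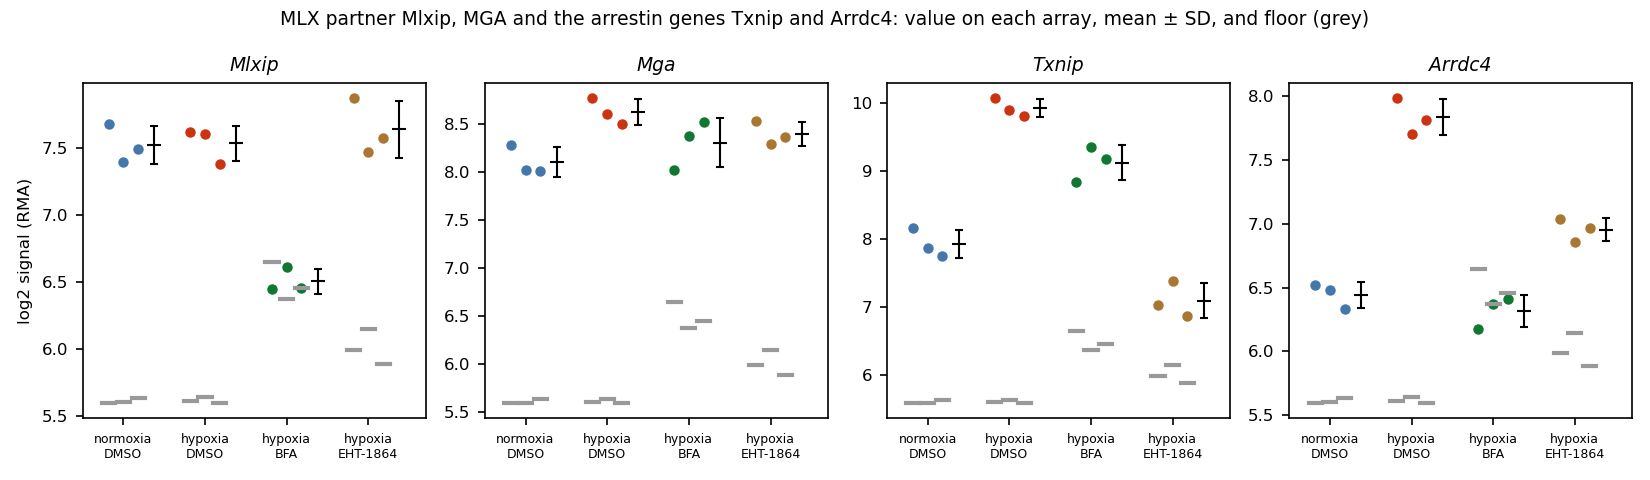
Log2 RMA signal on each array for Mlxip, Mga and the MondoA targets Txnip and Arrdc4, with group mean ± SD (n = 3) and array floors in grey. Mlxip is low with BFA, where 2 of 3 arrays lie under the floor, and Txnip is lowest with EHT-1864, while Arrdc4 lies under the floor on all 3 BFA arrays.

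The gene lists here and below were chosen with earlier results of these data known. Their counts, set beside the shares of all probes, are thus descriptions only. MXD and MNT proteins recruit the SIN3 corepressor. Of 12 measured SIN3 and histone deacetylase genes, 7 fell, none rose and 5 did not pass with BFA, with a median of −0.33, beside 24.6% lower among all probes. The 7 became 4 after quantile normalisation. Hdac2 fell by 1.27 ± 0.10 (limma adjusted p = 7.60e-07), Hdac1 by 1.25 ± 0.13 (adjusted p = 4.92e-06) and Sap30, a SIN3 complex subunit, by 1.31 ± 0.14 (adjusted p = 5.64e-06). With EHT-1864 4 fell and 1 rose, with a median of −0.21, and 4 became 2 after quantile normalisation. Among all probes 17.4% were lower and 13% higher with EHT-1864. The scaffold Sin3a fell by 1.04 ± 0.11 with EHT-1864 (adjusted p = 2.26e-05), and Ing2, a chromatin reader of the complex, rose by 1.07 ± 0.22 (adjusted p = 0.00265). In hypoxia against normoxia 1 of 12 passed, Sap30, with a rise of 0.64 ± 0.14 (adjusted p = 0.0247), a call lost on leaving out any of the 6 arrays compared, with adjusted p up to 0.117. Among all probes 2.67% were called in that comparison.

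Of 10 measured MYC coactivators, 4 fell and 1 rose with BFA, with a median of −0.29, beside 24.6% lower and 26.1% higher among all probes. The 1 that rose was Kat5, whose call was lost under 12 alternatives. The number that rose ranged from 0 to 3 over the alternatives. Kat2a, the GCN5 histone acetyltransferase, fell by 2.17 ± 0.13 (limma adjusted p = 4.36e-08) and the ATPase Ruvbl1 by 0.96 ± 0.13 (adjusted p = 4.12e-05). With EHT-1864 2 fell and 2 rose, near the array's own shares of 17.4% lower and 13% higher. The number that fell went to 0 after quantile normalisation, and the number that rose to 0 without hypoxia DMSO array 1. The 2 that fell were the scaffold Trrap, by 0.81 ± 0.20 (adjusted p = 0.00802), and the acetyltransferase Ep300, by 0.53 ± 0.15 (adjusted p = 0.0159), a call lost under 4 alternatives. None of the 10 passed in hypoxia against normoxia, where 2.67% of all probes were called.

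Of 10 measured genes that set MYC protein stability, 6 fell and 1 rose with BFA, with a median of −0.84, and 5 fell with EHT-1864, with a median of −0.29. Among all probes 24.6% were lower and 26.1% higher with BFA, and 17.4% were lower with EHT-1864. Skp2, a ubiquitin ligase subunit for MYC, fell by 1.25 ± 0.16 with BFA (limma adjusted p = 4.27e-05) and by 1.50 ± 0.16 with EHT-1864 (adjusted p = 2.94e-05). The kinases Gsk3b and Aurka fell with BFA by 0.80 ± 0.11 and 0.89 ± 0.12, and the nucleolar deubiquitinase Usp36 rose by 0.85 ± 0.14 (adjusted p = 2.25e-04). None passed in hypoxia against normoxia, where 2.67% of all probes were called. The list mixes ubiquitin ligase, deubiquitinase and kinase genes, so its counts and medians give no direction for MYC protein, which was not measured.

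Genes that MYC is known to activate were mostly lower with BFA and mixed with EHT-1864. Of 33 measured, 19 fell and 3 rose with BFA, with a median of −0.45, beside 24.6% lower and 26.1% higher among all probes. None of the 33 lay below the floor in both groups, whereas the shares of all probes include many probes under it. Shmt1, an enzyme of one-carbon metabolism, fell to below the floor, at least 2.39-fold (limma adjusted p = 2.52e-08). Polr1b, an RNA polymerase I subunit, fell at least 2.22-fold (adjusted p = 9.11e-07), and the cyclin gene Ccnd2 at least 1.10-fold (adjusted p = 1.09e-06). The adjusted p of Ccnd2 is for its mean values of 6.62 with DMSO in hypoxia and 4.79 with BFA, not for the bound. The 3 that rose were Ppan, by 0.49 ± 0.13, Odc1, by 0.44 ± 0.13, and Npm1, by 0.32 ± 0.12. This number ranged from 1 to 6 over the alternatives. The call of Npm1 was lost under 8 of them, among them leaving out any BFA or hypoxia DMSO array, and that of Odc1 under 2, without DMSO array 1 and with only the 6 arrays compared.

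With EHT-1864, where Myc had no call, 12 of the 33 rose and 6 fell, with a median of 0.18. Among all probes 13% were higher and 17.4% lower. Odc1, the first enzyme of polyamine synthesis, rose by 1.97 ± 0.13 (limma adjusted p = 5.26e-07), and the ribosome factors Mrto4 and Nop58 rose by 0.80 ± 0.11 each. Ccnd2 fell to below the floor, at least 1.54-fold, and the transferrin receptor Tfrc fell by 0.94 ± 0.12 (adjusted p = 1.13e-04). Between the compounds, 23 of the 33 were lower with BFA and none higher, with a median of −0.62. Among all probes 19.6% were lower and 16.9% higher. After quantile normalisation 3 of the 33 were higher, and the number lower became 18 with only the 6 arrays compared. Nme1, a nucleoside diphosphate kinase, was 1.60 ± 0.13 lower with BFA than with EHT-1864 (adjusted p = 1.07e-06).

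In hypoxia with DMSO against normoxia the same 33 genes had a median of −0.33, with 2 higher and 3 lower. Among all probes 2.11% were higher and 0.563% lower. The number lower ranged from 1, without hypoxia DMSO array 1, to 15, with array weights. The 3 lower were Tfrc, by 0.82 ± 0.12 (limma adjusted p = 0.00246), Shmt1, by 0.69 ± 0.14, and Mrto4, by 0.45 ± 0.11. The 2 higher were Slc7a5, an amino acid transporter, by 0.73 ± 0.13, and Ccnd2, by 0.66 ± 0.16. The number higher fell to 0 without normoxia array 3. The call was lost under 12 of the 21 alternatives for Ccnd2, 10 for Mrto4, 5 for Shmt1 and 1 for Slc7a5.

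Glycolytic genes that MYC and HIF-1 share followed another pattern. All 6 measured rose in hypoxia, with a median of 2.26, among them Pdk1, which limits pyruvate entry into mitochondria, by 3.86 ± 0.25 (limma adjusted p = 1.11e-06). With BFA 5 of 6 fell, with a median of −0.99, and the glycolytic enzyme Tpi1 fell by 1.81 ± 0.15 (adjusted p = 9.69e-07). With EHT-1864 6 of 6 fell, with a median of −1.53, and the hexokinase gene Hk2 fell by 2.37 ± 0.21 (adjusted p = 5.38e-06). Between the compounds 3 of 6 were higher with BFA and none lower, Hk2 by 1.60 ± 0.21 (adjusted p = 4.37e-05). Among all probes 2.11% were higher in hypoxia, 24.6% lower with BFA and 17.4% lower with EHT-1864. Between the compounds 16.9% of all probes were higher with BFA.

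Of 8 measured genes that MYC is known to repress, 4 rose in hypoxia, among them Ndrg1, by 4.01 ± 0.16 (limma adjusted p = 1.53e-08), and the cell cycle inhibitor Cdkn1a, by 1.29 ± 0.14 (adjusted p = 2.02e-04). Both are also known hypoxia-responsive genes. Among all probes 2.11% were called higher in hypoxia. With BFA 2 rose and 3 fell, with a median of −0.04, beside 26.1% higher and 24.6% lower among all probes. The number that rose thus lies near the array's own share. The DNA damage gene Gadd45a rose by 2.10 ± 0.14 (adjusted p = 1.24e-07), and Ndrg2 fell by 1.85 ± 0.11 (adjusted p = 3.86e-08). With EHT-1864 2 rose and 3 fell, with a median of 0.00, beside 13% higher and 17.4% lower among all probes.

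**Figure D4:**
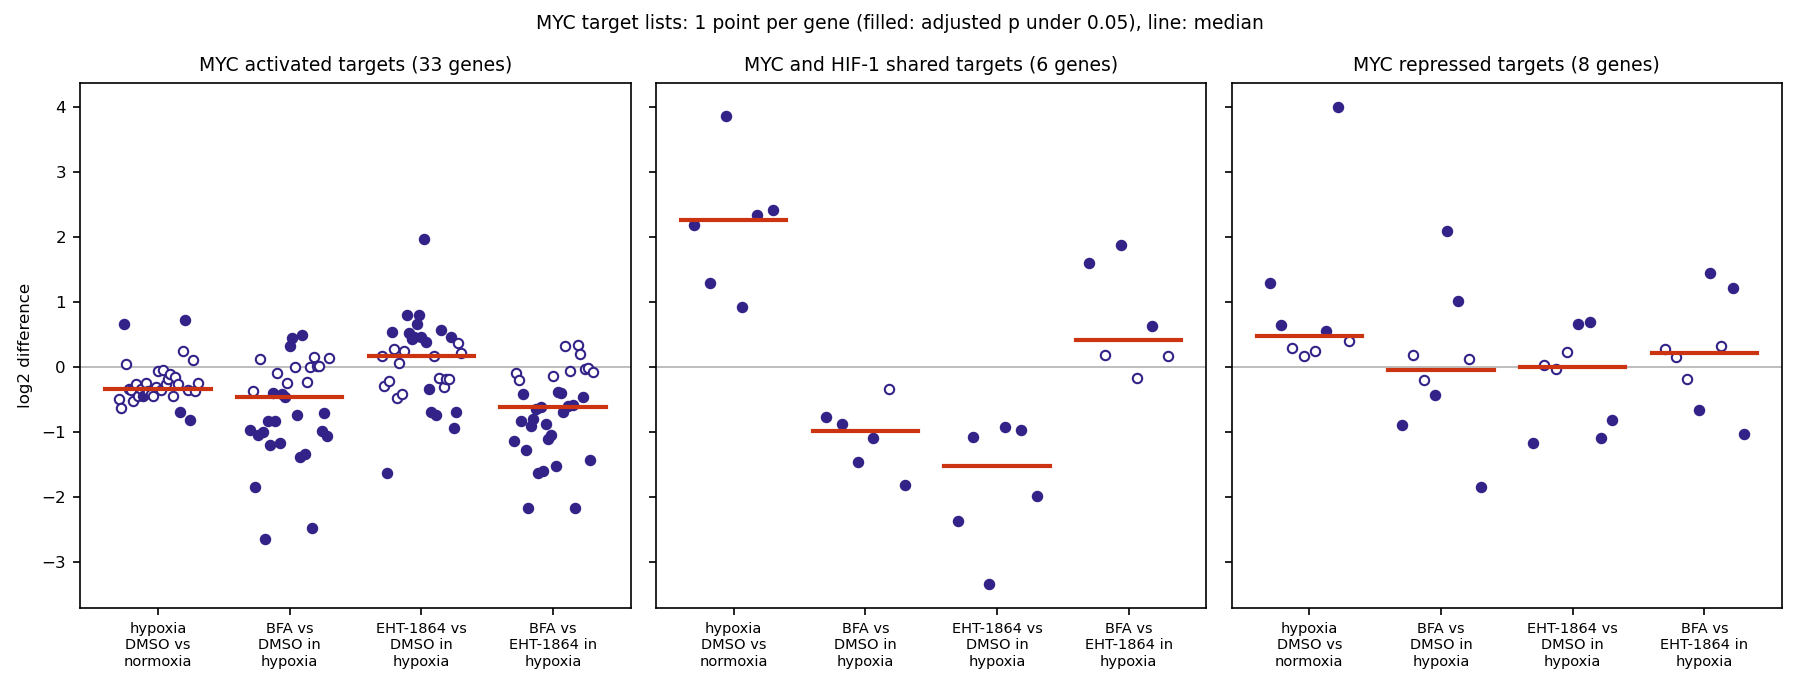
Log2 difference of each measured gene of 3 MYC target lists in 4 comparisons, with filled points for adjusted p under 0.05 and a red line at the list median. The median of the activated targets is −0.45 with BFA and 0.18 with EHT-1864 against DMSO, and that of the shared targets is 2.26 in hypoxia and negative with both compounds.

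The genes whose levels followed the members most closely over the 12 arrays were found by Pearson's r among 9785 named genes above the floor on at least 3 arrays. These r values are descriptions over 4 groups, and they rise with any shared group difference. For Myc they were Timp4, Rlbp1, Cyp2j9, Padi2 and Tubb2a, with r of 0.996 to 0.997. The retinoid-binding gene Rlbp1 had a mean of 9.99 with DMSO in hypoxia, 9.68 with EHT-1864 and 7.03 with BFA. For Mxi1 the nearest were Ccng2, an inhibitory cyclin, with r of 0.947, and Nampt, an NAD synthesis enzyme, with 0.943. Ccng2 had a mean of 8.76 in normoxia, and in hypoxia of 10.31 with DMSO, 10.29 with EHT-1864 and 9.72 with BFA, so like Mxi1 it lay between normoxia and hypoxia with BFA. For Max the nearest included Azi2 (r = 0.994), the transcription factor Pax6 (0.981) and Pdia6, a protein-folding enzyme of the endoplasmic reticulum (0.977). Pdia6 had a mean of 10.31 with BFA, 9.49 with DMSO in hypoxia and 8.49 with EHT-1864, on either side of DMSO as for Max.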

How the data were processed

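RNA of 4 groups was measured on 12 Clarion S arrays, 3 for each group. The deposited values are log2 signals made by the authors with Affymetrix Expression Console and RMA, per the submitters' processing notes. Versions and any probe filter are not given in the sources used here. Of 28846 rows, 6640 control rows were left out and 22206 probes tested; 19572 have 1 gene symbol and 2634 none. A gene with several probes was given by its brightest probe. limma 3.58.1 in R 4.3.3 was fitted to all 12 arrays (lmFit and eBayes, 8 residual degrees of freedom), with Benjamini-Hochberg adjustment over all probes in each of 6 comparisons and a threshold of 0.05. The fit was also run on simulated data with few shifted probes, independent noise and no array differences. That run does not bear on the array differences seen here. Precision is limited by the 3 arrays in each group.

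Groups and array numbers came from the sample labels. The labels do not say whether equal numbers share a culture. Deviations from group means correlated at r of −0.18 to 0.17 in 18 same-numbered pairs, with 1 over 0.1, so the numbers were not used as a block. No 2 arrays held identical values.

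The members, gene lists and tests were chosen with earlier results of these data known. Of 99 listed pathway genes 90 were measured. Text names all members, up to 3 genes per list, direction and comparison with the smallest adjusted p, all genes of lists of 3 or fewer, and up to 5 genes most like each member. Genes of unsure function were left out. Alternatives were quantile normalisation, median subtraction, filters on dim probes, array weights, a trended and robust variance, a replicate block, only the 6 arrays compared, and leaving out each array. A filter on probes above the floor was chosen after seeing the data.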

Additional observations from a re-analysis of the deposited data

Results flagged for a closer look

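The changes under BFA and under EHT-1864 differed for 5 members by the direct limma test between the 2 groups of 3 arrays. Each compound was set against the same 3 arrays of hypoxia with DMSO. The change under BFA minus that under EHT-1864 was −1.75 ± 0.11 for Myc (SE, adjusted p = 1.34e-07), with all 3 BFA arrays below all 3 EHT-1864 arrays. For Max it was 1.07 ± 0.13 (limma adjusted p = 3.08e-05), with Max higher with BFA and lower with EHT-1864 than with DMSO. The difference was −0.68 ± 0.12 for Mxi1 (limma adjusted p = 6.93e-04) and 0.52 ± 0.14 for Mxd4 (adjusted p = 0.00899). It was 1.07 ± 0.19 for Mnt (limma adjusted p = 6.99e-04), where 1 of the 3 EHT-1864 arrays lay below the floor. In these 5 members the BFA and EHT-1864 arrays did not overlap.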

How the results depend on the processing

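Of 60 member differences (10 members in 6 comparisons), 29 were called. Of these, 19 kept the call under every alternative and 10 lost it under at least 1, and none of the called differences changed sign. Of the 31 without a call, 12 gained it under at least 1. In hypoxia against normoxia, 2 members in place of 1 were called with array weights, with a minimum log2 signal of 6 on 3 or more arrays, with trended and robust variance, without the dimmest 25% of probes, and with probes above the floor on 3 or more arrays (the last chosen after seeing the data). There the probes called were 593 and became 2258 with array weights, 1264 with the log2 minimum of 6, 1234 with only the 6 arrays compared, 1221 with trended and robust variance and 1247 above the floor. For BFA against DMSO the 11269 probes called became 7215 with the log2 minimum and 7423 above the floor. Fewer probes were tested there, 10545 with the log2 minimum and 10991 above the floor.

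Leaving out each array in turn, the members called ranged from 5 to 8 for BFA against DMSO, 2 to 4 for EHT-1864 against DMSO, 5 to 7 for BFA against EHT-1864, 4 to 8 for BFA against normoxia, 3 to 4 for EHT-1864 against normoxia and 1 to 1 for hypoxia against normoxia. The probes called ranged from 9538 to 11394, 4986 to 7806, 6900 to 8280, 8503 to 10601, 3451 to 5753 and 254 to 898 in the same order. For hypoxia against normoxia they were 898 without BFA array 1, 273, 287 and 284 without hypoxia DMSO array 1, 2 or 3, and 315, 282 and 254 without normoxia array 1, 2 or 3.

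With the array number as a replicate block, the members called were 7, 4, 5, 8, 4 and 1 in that order, as without it, and the probes called 10938, 6349, 7816, 10117, 4570 and 442. Of 12 arrays, 3 correlated best with an array of their own number in another group. Against the 99th percentile of the negative control probes, 5 of the 10 members lay above the floor on at least 3 arrays, in place of 9. Mycn, Mycl, Mxd1, Mxd3 and Mnt lay above that percentile on 0 of 12 arrays. Max and Mxd4 lay above it on 6 arrays each, none of them with BFA or EHT-1864. Mxi1 and Mlx lay above it on no BFA array. Signal over background limits what can be said of Mycn, Mycl, Mxd1, Mxd3 and Mnt.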
